A study of Mus musculus with 46 samples.

Results

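The RNA-seq libraries described here compare mouse fibroblasts 3 days into reprogramming with a Nanog fusion protein against fibroblasts at the same day with native Nanog. Members were taken by their labels, as the 2 NanogN70+Oct4 and the 2 Nanog+Oct4 libraries of D3. These are 4 of the 46 samples of the series, of which 34 are in the gene table and 31 belong to the time course. NanogN70 is the label for what the study calls NanogBiD, full-length Nanog that carries at its N-terminus the piece of SS18 that holds on to BRG1. The comparison asks what that added piece changes in the transcriptome early on, since Oct4 (gene symbol Pou5f1) is delivered in both groups.

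All 4 libraries came from OG2 mouse embryonic fibroblasts (MEF), which carry an Oct4-GFP reporter and were isolated from embryos of OG2 fathers and mothers of a 129 strain. Per the study's methods, the factors were carried by pMXs retroviral vectors packaged in Plat-E cells, D0 was the end of infection, and the cells were then kept in the reprogramming medium iCD3, so that D3 precedes the switch to N2B27 with 2iL. MEF (2 libraries) and mouse embryonic stem cells (mES, 1 library) served as references. A group with an empty vector at D3 was not analysed here, so the comparison shows fusion against native Nanog, and not either of them against untreated cells. The sources used here do not say whether replicates were separate cultures. The p-values thus measure a spread between replicate libraries, shared over the whole time course and not that of D3 alone, which may be technical.

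BAF complexes use the ATPase BRG1 (gene symbol Smarca4) to slide and evict nucleosomes, and SS18 is a subunit that docks onto BRG1. Nanog and Oct4 are DNA-binding factors of pluripotent cells, and each has many targets that are packed away in fibroblasts. During reprogramming, fibroblast genes for matrix, contraction and adhesion are known to decline early, while the genes of pluripotency are known to come on later and in few cells.

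The values are FPKM, a read level corrected for library size and for gene length, and levels were compared on the scale log2(FPKM + 1), which understates the change of low genes. Differences are NanogN70 minus native Nanog. Called means here that limma gave an adjusted p (Benjamini-Hochberg) below 0.05 and that the groups were 2-fold or more apart on this scale, a size of 1 in log2, with the spread shared over all 16 groups of the time course. The D3 libraries summed to between 390004 and 451885 FPKM, with 13075 to 13257 genes at or above 1 FPKM. Read depth is not given, and no interval or floor that needs it is printed. The 2 NanogN70 replicates correlated at r = 0.967 across genes, the second lowest of 15 replicate pairs in the time course, and 905 genes were at least 2-fold apart between them. For the 2 native Nanog replicates these values were 0.986 and 249 genes. Libraries of different combinations correlated at 0.956 to 0.964 and had 966 to 1294 genes at least 2-fold apart. Transcripts of the mitochondrial genome made up 14.3% and 20.8% of the total FPKM with NanogN70 and 18.9% and 12.6% with native Nanog, so that this share overlapped between the groups.

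Fibroblast genes were expressed in all 4 libraries at D3, and most of the endothelial, muscle, erythroid, neural crest, glial and macrophage markers counted were low. Thy1 was at 16.2 FPKM or more in each library, and Col1a1 at 113 or more. Of 10 endothelial markers, 8 were under 1 FPKM in all 4 libraries, as were 11 of 12 skeletal muscle markers, 9 of 10 erythroid markers and 6 of 8 neural crest and glial markers. Of 13 macrophage markers 9 were under 1 FPKM in all 4. Neural genes were not low as a sum, although 11 of 27 were under 1 FPKM in all 4 libraries. Their summed level was 1440 and 1060 FPKM with NanogN70 and 945 and 1030 with native Nanog, beside 263 and 302 in MEF. Single members weigh in this sum, such as Tubb3 at 296 and 167 FPKM with NanogN70 and Nefm at 117 and 168 with native Nanog. In bulk RNA, fewer cells that express a gene and less RNA per cell cannot be told apart, which holds for every gene below.

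The factors themselves were checked before the rest. Ss18 was at 136 and 117 FPKM in the NanogN70 replicates and at 35.4 and 35.6 in the native Nanog replicates. The groups were far apart, with a log2 difference of 1.80 (SE 0.17, adjusted p = 6.31e-07), and MEF stood at 26.7 and 29.3 FPKM. The fusion transcript carries a part of Ss18, and its reads and those of the endogenous gene cannot be told apart in these values. Nanog stood at 1480 and 1590 FPKM with NanogN70 and at 1570 and 1630 with native Nanog, a log2 difference of -0.06 (SE 0.20, adjusted p = 0.941). Pou5f1 stood at 6970 and 4570 FPKM against 6950 and 7710, a log2 difference of -0.38 (SE 0.36, adjusted p = 0.621), and the groups overlapped. Both combinations thus carried Nanog and Pou5f1 transcripts at levels above those of mES, where Nanog was at 365 FPKM and Pou5f1 at 877. The vector and the endogenous copies of these genes are summed in the table.

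Of 16842 genes tested, 623 (3.7%) were called at D3, and more of them were lower than higher with NanogN70. The genes called higher numbered 210 (1.25%), and those called lower 413 (2.45%). The median difference over all genes tested was 0.04. In every called gene the 2 groups did not overlap, which was also true of 45.5% of all genes tested. The call turned on the shared spread, since a fit to these 4 libraries alone called 0 genes in limma (2613 at an unadjusted p under 0.05). A further 1086 genes passed the adjusted p with a difference under the fold limit.

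**Figure D1:**
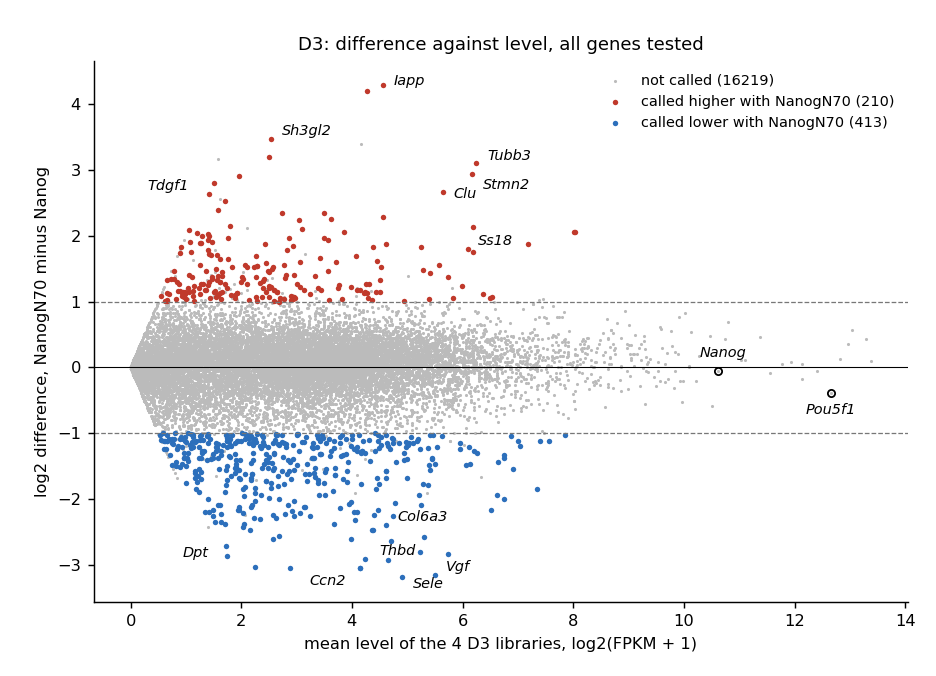
Log2 difference (NanogN70 minus native Nanog, vertical axis) against the mean level of the 4 D3 libraries in log2(FPKM + 1) (horizontal axis) for each of the 16842 genes tested. Red points are the 210 genes called higher and blue points the 413 called lower with NanogN70, dashed lines mark a log2 difference of 1 in either direction, and open circles show that the factors Nanog and Pou5f1, at the right end, were not called.

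Genes at least 4-fold higher in MEF than in mES were frequent among the lower calls. The higher calls held more genes that are low in both references than genes at least 4-fold higher in mES. Among the 413 lower genes, 107 (25.9%) were at least 4-fold higher in MEF than in mES, against 6.53% of all genes tested. Of the 210 higher genes, 18 (8.57%) were. Genes at 1 FPKM or more in MEF made up 59.3% of the lower and 43.3% of the higher genes, against 74.7% of all genes tested. Among the 210 higher genes, 27 (12.9%) had a level in mES at least 4-fold that in MEF, against 6.45% of all genes tested. In contrast, 84 of the higher genes (40.0%) and 137 of the lower (33.2%) were under 1 FPKM in both MEF and mES, where 16.2% of all genes tested were. Long non-coding RNAs made up 24 of the higher genes (11.4%) and 24 of the lower (5.81%), against 6.33% of all. The table lists some genes under an older and a newer symbol at once, and 19 such copies are among the calls, which leaves 604 without them (203 higher and 401 lower).

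The genes with the highest differences included several that neurons or secretory cells are known for, and most of them were at or near 0 in MEF. Iapp, the islet amyloid polypeptide (chromosome 6, 142298425 to 142303820), was at 100 and 105 FPKM with NanogN70 and at 6.48 and 2.81 with native Nanog. That is a log2 difference of 4.28 (SE 0.32, adjusted p = 3.58e-08), for a gene listed at 0 in all MEF and mES libraries. Sh3gl2, which encodes endophilin A1 of synaptic vesicle recycling (chromosome 4, 85205456 to 85389380), was at 17.1 and 19.3 against 0.778 and 0.694 FPKM (3.47, SE 0.24, adjusted p = 1.45e-08). Its NanogN70 level was close to the 17.6 FPKM of mES. Tubb3, the neuronal beta-tubulin (chromosome 8, 123411553 to 123422015), was at 296 and 167 against 20.2 and 30.7 FPKM (3.10, SE 0.42, adjusted p = 4.51e-05). Stmn2, a microtubule-destabilising protein of growing axons (chromosome 3, 8509527 to 8561604), was at 205 and 193 against 22.7 and 27.8 FPKM (2.93, SE 0.18, adjusted p = 7.44e-09). For both, the NanogN70 libraries lay above MEF and mES as well as above native Nanog.

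Other leading genes act in lipid, retinoid and cytokine biology. Clu, an extracellular chaperone that binds lipids, was at 149 and 104 FPKM with NanogN70 and at 19.3 and 18.5 with native Nanog (log2 difference 2.66, SE 0.24). Aldh1a2, which makes retinoic acid from retinal, was at 30.9 and 19.5 against 3.99 and 4.05 FPKM (2.35, SE 0.26). Il33, a nuclear cytokine of barrier and stromal cells, was at 11.7 and 16.7 against 2.31 and 1.66 FPKM (2.34, SE 0.22). In these 3 genes the NanogN70 libraries lay above native Nanog, MEF and mES alike. Tdgf1, Shisal2a, Gpr151, Lgi2 and Plcxd2 completed the 12 highest, with differences from 2.24 to 2.80. Outside the rule for named genes, and singled out after its values were seen, the long non-coding RNA U90926 was at 95.4 and 70.6 against 2.80 and 4.49 FPKM (4.19, SE 0.25).

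The genes with the lowest differences were led by surface, secreted and calcium-handling proteins, and several were as high with native Nanog as in MEF or higher. Sele, the E-selectin that captures leukocytes (chromosome 1, 164039614 to 164058487), was at 8.58 and 9.23 FPKM with NanogN70 and at 114 and 69.0 with native Nanog, a log2 difference of -3.18 (SE 0.33, adjusted p = 2.84e-06). Both groups stood above MEF, where it was at 0.0161 and 0.0315 FPKM. Of 6 endothelial markers tested, Tek, the angiopoietin receptor, was called lower as well, at 1.30 and 1.26 against 4.11 and 3.81 FPKM (-1.12, SE 0.19), while Pecam1 and Cdh5 were at 0.836 FPKM or lower in all 4 libraries. The summed level of the 10 endothelial markers was 2.99 to 3.51 FPKM with NanogN70 and 7.48 to 8.52 with native Nanog, and its part in the Sele result was not tested. Vgf, a secreted neuropeptide precursor induced by growth factors (chromosome 5, 137025301 to 137033351), was at 16.4 and 12.3 against 121 and 148 FPKM (-3.15, SE 0.28, adjusted p = 3.03e-07). Ccn2, the connective tissue growth factor (chromosome 10, 24595442 to 24598683), was at 4.28 and 6.21 against 46.1 and 54.4 FPKM (-3.05, SE 0.31, adjusted p = 2.4e-06). MEF held 384 and 546 FPKM of Ccn2, so both groups were below the starting cells and NanogN70 was near the 7.31 FPKM of mES.

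Thbd, thrombomodulin, which turns thrombin towards anticoagulation (chromosome 2, 148404471 to 148408188), was at 5.21 and 6.66 FPKM against 48.1 and 53.3 (-2.90, SE 0.21, adjusted p = 3.58e-08). With native Nanog it was at the level of MEF (54.1 and 23.5 FPKM), and with NanogN70 it was below both MEF libraries. Lrrc32, which tethers latent TGF-beta at the cell surface, showed the same picture at 7.01 and 9.32 against 67.2 and 68.6 FPKM (-2.92, SE 0.20), with MEF at 57.5 and 91.6. Casq2, a calcium-storage protein of the sarcoplasmic reticulum, was at 0.266 and 0.228 against 7.52 and 8.67 FPKM (-2.86, SE 0.19), and MEF held 0.461 and 0. Pde1a, a calmodulin-dependent phosphodiesterase, was at 8.36 and 10.8 against 70.6 and 58.8 FPKM (-2.64, SE 0.18), again above MEF in both groups. Mpeg1, a pore-forming protein of macrophages, was at 1.28 and 1.88 against 22.4 and 18.2 FPKM (-3.05, SE 0.37). Of the 11 macrophage markers tested 0 were called in either direction, beside 3.7% of all genes. The summed level of all 13 listed was 6.27 to 13.6 FPKM with NanogN70 and 6.64 to 20.4 with native Nanog. Of these 13, 9 were under 1 FPKM in all 4 libraries, and the others reached 1 FPKM in at least 1. The part of macrophages in the Mpeg1 result was not tested. Nefm, a neurofilament subunit, was at 19.9 and 18 against 117 and 168 FPKM (-2.83, SE 0.39), but its reads may be shared with its overlapping neighbours, so its value is uncertain. Thsd7b, Dpt and Npnt completed the 12 lowest, with differences from -3.03 to -2.61. Npnt, the integrin ligand nephronectin, was at 4.35 and 6.58 against 34.6 and 41.7 FPKM (SE 0.19).

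**Figure D2:**
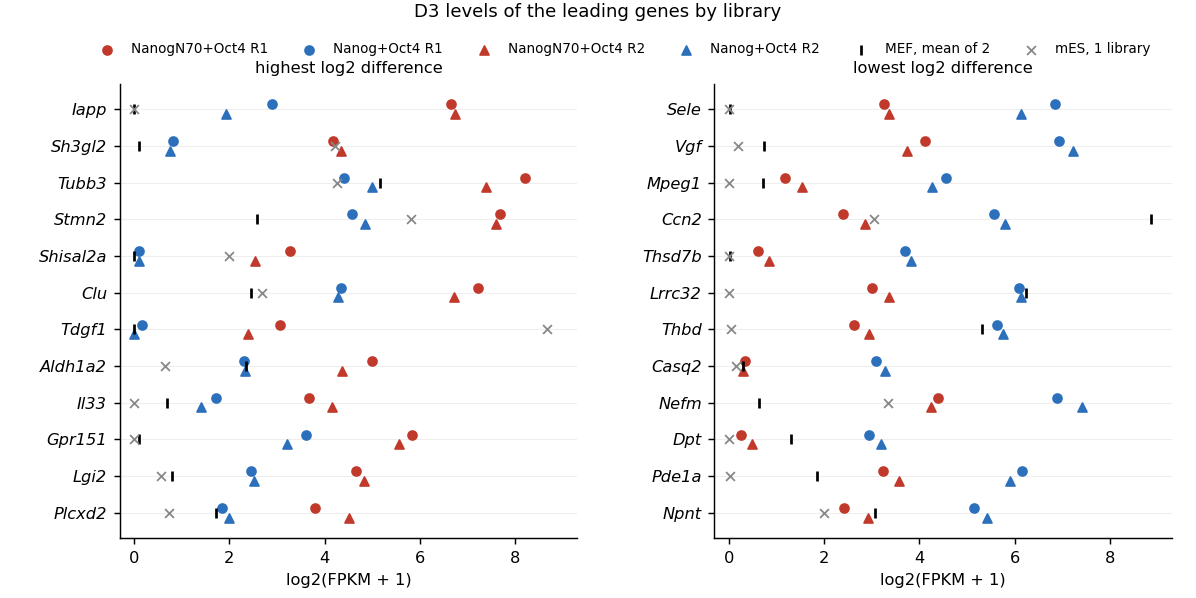
Levels in log2(FPKM + 1) (horizontal axis) of the 12 genes with the highest and the 12 with the lowest log2 difference at D3, by library, with circles and triangles for replicates 1 and 2, a bar for the mean of the 2 MEF libraries and a cross for mES. In all 24 genes the 2 red NanogN70 points lie on one side of the 2 blue native Nanog points.

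Short stretches of promoter are printed for some named and called genes whose window holds a match to either of 2 motifs. They let a reader see the letters that Oct4 or interferon-activated factors are known to bind. The printed genes are not a complete set, since the search ran past the start and the printed stretches end before it. The sequences are the 250 bases before the RefSeq transcript start, GRCm38.p6 (the same build as mm10), plus strand, with the match in capitals. The octamer ATGCAAAT is the site of Oct factors, and the letters GAAA, any 2 bases, then GAAA again form the core of an interferon response element. Both strands were searched, in 300 bases from 250 before to 50 after the start.
Aldh1a2 chr9:71215539-71215788: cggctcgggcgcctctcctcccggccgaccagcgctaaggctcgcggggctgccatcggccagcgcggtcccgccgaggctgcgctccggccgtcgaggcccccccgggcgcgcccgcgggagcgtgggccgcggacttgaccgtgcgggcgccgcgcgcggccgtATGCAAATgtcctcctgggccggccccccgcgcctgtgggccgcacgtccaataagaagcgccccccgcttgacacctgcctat
Il33 chr19:29945540-29945789: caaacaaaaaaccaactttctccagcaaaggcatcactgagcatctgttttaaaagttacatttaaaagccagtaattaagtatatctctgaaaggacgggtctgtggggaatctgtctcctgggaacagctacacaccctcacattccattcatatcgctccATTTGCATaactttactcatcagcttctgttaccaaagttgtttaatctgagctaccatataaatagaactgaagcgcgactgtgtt
Ifit3 chr19:34583279-34583528: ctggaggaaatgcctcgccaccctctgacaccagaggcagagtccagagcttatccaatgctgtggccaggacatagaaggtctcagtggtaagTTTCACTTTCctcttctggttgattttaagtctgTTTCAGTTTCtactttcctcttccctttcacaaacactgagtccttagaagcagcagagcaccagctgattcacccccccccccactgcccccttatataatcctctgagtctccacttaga
Ifit3b chr19:34607707-34607956: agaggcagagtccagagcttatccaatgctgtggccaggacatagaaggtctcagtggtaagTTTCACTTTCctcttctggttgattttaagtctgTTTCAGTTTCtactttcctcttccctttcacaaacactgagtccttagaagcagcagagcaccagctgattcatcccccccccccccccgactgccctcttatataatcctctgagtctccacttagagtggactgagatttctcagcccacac

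Aldh1a2 and Il33 were called higher with NanogN70 and hold the octamer 84 and 87 bases before the start. The starts used for Il33, Ifit3 and Ifit3b lie inside the spans that the same annotation gives these genes (chromosome 19, 29925113 to 29960718 for Il33, 34583119 to 34588982 for Ifit3 and 34607530 to 34613403 for Ifit3b), and so do their printed stretches. Ifit3 and Ifit3b were called lower and hold 2 interferon matches each, starting 156 and 122 bases before the start in Ifit3 and 188 and 154 in Ifit3b. Of the promoters of all 27025 symbols in the RefSeq table, 1.97% hold the octamer and 3.99% the interferon motif. Among the genes with a promoter, the octamer was in 5 of 136 called higher (3.68%) and 6 of 297 called lower (2.02%). The interferon motif was in 3 of the same 136 (2.21%) and 16 of the 297 (5.39%). A match is a description of the letters, not evidence of binding.

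Genes of the fibroblast matrix gave the most lower calls of the 30 lists counted. Of 42 matrix genes tested, 15 were called lower, 1 higher and 26 neither, beside 2.45% of all genes called lower and 1.25% higher. Their median difference was -0.77, beside the 0.04 of all genes. In 31 of them both NanogN70 libraries were below both native Nanog libraries, and in 3 the reverse was found, beside 20.1% and 25.4% of all genes tested. Dpt, dermatopontin, a small matrix protein that binds decorin, was at 0.189 and 0.392 FPKM with NanogN70 and at 6.69 and 8.15 with native Nanog (-2.71, SE 0.26, adjusted p = 8.63e-07). Both native Nanog libraries lay above MEF, where Dpt was at 2.57 and 0.391 FPKM. Col6a3, a chain of the beaded-filament collagen VI, was at 8.19 and 11.6 against 57.4 and 53.3 FPKM (-2.39, SE 0.30, adjusted p = 2.55e-05). The other 2 main chains of that collagen went with it, Col6a1 at -1.77 and Col6a2 at -1.13, although the Col6a2 call was lost without either native Nanog library or without NanogN70 replicate 2.

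The small leucine-rich proteoglycan Lum, which spaces collagen fibrils, was at 17.4 and 17.3 FPKM against 74.4 and 80.7 (-2.09, SE 0.25). Col14a1, a fibril-associated collagen, was at 1.25 and 1.19 against 10.4 and 6.87 FPKM (-2.09, SE 0.22). Thbs1, thrombospondin, an adhesive glycoprotein that activates latent TGF-beta, was at 58.9 and 119 against 270 and 347 FPKM (-1.85, SE 0.29), both groups below the 1130 and 1480 of MEF. The fibrillar chains Col1a2 (-1.33) and Col3a1 (-1.46) were called lower as well, while Col1a1 stood at 113 and 133 against 206 and 281 FPKM, with a difference of -0.97 that fell short of the fold limit. Fn1, fibronectin, was at 122 and 214 against 260 and 414 FPKM (-1.02, SE 0.25), and this call was lost without NanogN70 replicate 1, without native Nanog replicate 2, with the spread of D0 to D7 alone and once the trend with GC content and length was removed. Lox, the enzyme that cross-links collagen and elastin, went the other way, at 75.3 and 94.2 against 29.8 and 34.3 FPKM (1.37, SE 0.23, adjusted p = 5.03e-04). Its paralogue Loxl1 was called lower, at -1.38. The remaining lower calls were Bgn, Fbln5, Dcn and Efemp1, from -1.48 to -1.04, of which Bgn, Dcn and Efemp1 lost theirs without NanogN70 replicate 1.

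Genes of proteins that act on the matrix were called in the same direction. Of 28 matrix proteases and inhibitors tested, 5 were called lower and 0 higher, beside 2.45% of all genes called lower, with a median of -0.60. Serpine2, an inhibitor of thrombin and plasminogen activators, was at 61.9 and 79.7 FPKM against 180 and 235 (-1.54, SE 0.24). Mmp2, gelatinase A, was at 15.5 and 16.5 against 42.9 and 47.1 FPKM (-1.43, SE 0.14, adjusted p = 1.05e-06). Adamts12, Adamts2 and Timp2 were the other 3, at -1.36, -1.16 and -1.11. The calls of Adamts12 and Timp2 were lost without NanogN70 replicate 1, and that of Timp2 also without native Nanog replicate 2.

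Of 32 contractile genes and targets of TGF-beta, 5 were called lower and 0 higher, beside the same 2.45%, with a median of -0.34. Beside Ccn2, the lower genes were Des, the muscle intermediate filament, at 15.2 and 5.86 against 53.3 and 40.4 FPKM (-2.17, SE 0.38), and Myl9, a myosin light chain, at 6.00 and 2.60 against 13.1 and 18.5 (-1.73, SE 0.42). The Myl9 call was lost without NanogN70 replicate 2 or native Nanog replicate 2. Tgfbr2, the receptor that binds TGF-beta first, was at 25.3 and 34.6 against 65.3 and 73.6 FPKM (-1.20, SE 0.17), and Ltbp2, a latent-TGF-beta-binding matrix protein, was at -1.07. The Tgfbr2 call was lost without NanogN70 replicate 1, and the Ltbp2 call was lost without that library or without native Nanog replicate 2. Acta2 and Tagln, smooth muscle actin and transgelin, were not called, at 34.1 and 19.8 against 15.2 and 15.2 FPKM and at 5.82 and 5.66 against 8.08 and 14.4. Both were below MEF in all 4 libraries, where Acta2 was at 770 and 1150 FPKM. Tgfbi, a TGF-beta-induced adhesion protein, was at 172 and 103 against 75.3 and 58.5 FPKM, and its difference of 0.99 was just under the fold limit.

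Mesenchymal transcription factors and surface markers had 4 of 37 called lower, beside the 2.45% of all genes, 0 higher and a median of -0.46. Thy1, the fibroblast surface glycoprotein (chromosome 9, 44043384 to 44048579), was at 20.0 and 16.2 FPKM with NanogN70 and at 69.8 and 74.3 with native Nanog (-1.94, SE 0.32, adjusted p = 3.91e-04), after 158 and 264 in MEF. Osr1, a zinc-finger factor of mesenchyme, was the only transcription factor called on this list, at 14 and 13.4 against 31.1 and 36.0 FPKM (-1.22, SE 0.16). Eng, a TGF-beta co-receptor, and Nt5e, the ectonucleotidase CD73, were at -1.21 and -1.11, and Nt5e was lost as a call without native Nanog replicate 1. Nt5e at D3 was above MEF in both groups, with 14.9 and 13.5 against 43.5 and 23 FPKM beside 2.2 and 1.72. Twist2, Snai2 and Snai1, drivers of the mesenchymal state, had differences of -0.84, -0.80 and -0.72 and did not pass the adjusted p (0.124, 0.0724 and 0.151).

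**Figure D3:**
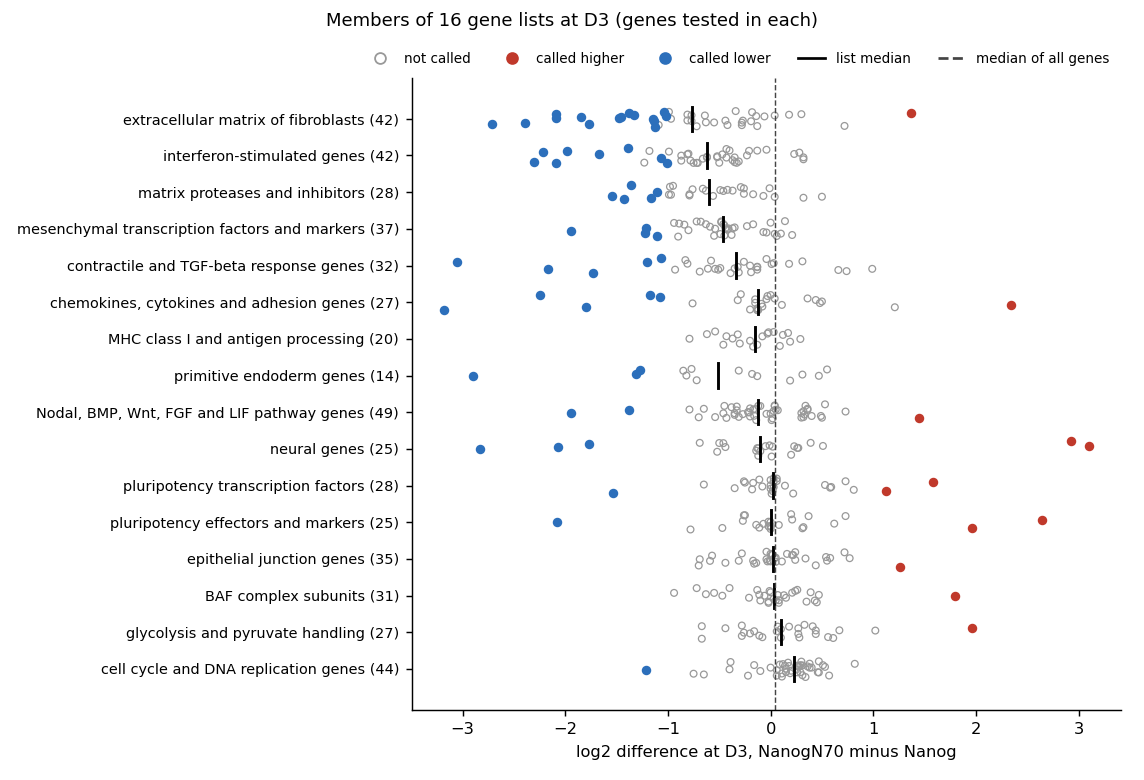
Log2 difference at D3 (horizontal axis) of the tested members of 16 gene lists (rows, with the number tested), open where not called, red where called higher and blue where called lower with NanogN70. Black bars mark list medians and the dashed line the 0.04 of all genes tested, and the matrix list has the lowest median at -0.77 and the cell cycle list the highest at 0.23.

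Pluripotency genes were called in both directions at D3. Of 28 pluripotency transcription factors tested, 2 were called higher, 1 lower and 25 neither, beside 1.25% of all genes called higher and 2.45% lower, with a median of 0.02, and 14 of the 28 were under 1 FPKM in all 4 libraries. Sall4, a zinc-finger factor of the pluripotency core (chromosome 2, 168748332 to 168767201), was at 1.49 and 1.27 against 0.0503 and 0.136 FPKM (1.12, SE 0.31, adjusted p = 0.0252), while mES held 57.4. The Sall4 call was lost without any 1 of the 4 libraries and without the filter on low values. Klf5, a Krüppel-like factor of naive pluripotency that fibroblasts also express, was lower, at 6.49 and 6.74 against 18.8 and 23.2 FPKM (-1.53, SE 0.27, adjusted p = 7.22e-04).

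The other factors that the study singles out were near 0 in both groups at D3 or did not pass the test. Sox2 stood at 1.56 and 0.449 FPKM with NanogN70 and at 0.215 and 0.106 with native Nanog, a difference of 0.73 that did not pass the test (SE 0.45, adjusted p = 0.369). Klf4 was at 6.15 and 3.85 against 2.92 and 5.52 FPKM (0.22, SE 0.35, adjusted p = 0.803), with overlapping groups and a sign that turned to -0.06 without NanogN70 replicate 1 and to -0.15 without native Nanog replicate 1. Esrrb, Dppa5a, Sox15, Foxb1 and Olig3 were at 0.218 FPKM or lower in the 4 libraries. Nr5a2, a nuclear receptor that can stand in for Oct4, was at 1.1 and 0.859 against 0.157 and 0.102 FPKM, with a difference of 0.81 under the fold limit (adjusted p = 0.0458).

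Among 25 effectors and markers of pluripotency, 2 were called higher and 1 lower, beside 1.25% and 2.45% of all genes. Of the 25, 10 had a difference above 0 and 15 below, but 15 of the 25 were under 1 FPKM in all 4 libraries. Both NanogN70 libraries were above both native Nanog libraries in 8 and below them in 5. Over all genes tested these shares were 25.4% and 20.1%. Tdgf1, the Nodal co-receptor Cripto (chromosome 9, 110939608 to 110946158), was at 7.42 and 4.22 FPKM with NanogN70, and with native Nanog at 0.127 in replicate 1 and listed at 0 in replicate 2 (2.64, SE 0.34, adjusted p = 2.55e-05). It was listed at 0 in MEF and stood at 408 FPKM in mES. Slc2a3, the glucose transporter GLUT3 (chromosome 6, 122727809 to 122802363), was at 24.8 and 18.1 against 4.73 and 4.65 FPKM (1.96, SE 0.29, adjusted p = 1.05e-04), beside 1070 in mES. It was also the only called gene of 27 in glycolysis and pyruvate handling, beside 3.7% of all genes called. Alpl, the alkaline phosphatase used to stain pluripotent colonies (chromosome 4, 137741731 to 137796384), was lower, at 0.649 and 0.273 against 5.24 and 5.04 FPKM (-2.08, SE 0.26, adjusted p = 1.70e-05).

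Epithelial junction genes had 1 of 35 called, beside 3.7% of all genes, with a median of 0.02. That gene was Cldn3, a tight junction claudin, at 8.78 and 3.51 against 1.47 and 2.11 FPKM (1.26, SE 0.33, adjusted p = 0.0183), and the call was lost without NanogN70 replicate 1 or without either native Nanog library.

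Of 42 interferon-stimulated genes tested, 8 were called lower, 0 higher and 34 neither, beside 2.45% of all genes called lower. Their median was -0.62, and 38 were below 0, as were 7387 of all 16842 genes. In 26 of the 42 both NanogN70 libraries were below both native Nanog libraries, which held for 20.1% of all genes tested. Ifit3b, an RNA-binding effector of the interferon response that is a near copy of Ifit3 (chromosome 19, 34607530 to 34613403), was at 0.938 and 1.66 FPKM with NanogN70 and at 10.3 and 10.0 with native Nanog (-2.30, SE 0.23, adjusted p = 1.55e-06). Ifit3 was at 2.05 and 2.95 against 15.6 and 12.1 FPKM (-2.09, SE 0.27), and since the genes are near copies, how their reads were divided is uncertain. Ifi44 was at 1.04 and 3.99 against 13.7 and 14.1 FPKM (-2.22, SE 0.30), and Zbp1, a sensor of unusual nucleic acids, at 2.03 and 1.67 against 11.2 and 9.27 (-1.98, SE 0.32). In MEF these 4 genes were at 1.15 FPKM or lower, so their levels with native Nanog at D3 were above those of the starting cells.

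NanogN70 replicate 1 was below replicate 2 in 37 of the 42 interferon genes, and native Nanog replicate 1 was below its replicate 2 in 23. Usp18, which limits interferon signalling, was at 6.26 and 20.0 FPKM against 37.1 and 39.5 (-1.67, SE 0.46, adjusted p = 0.0254), and its call was lost without NanogN70 replicate 1 or either native Nanog library. Mx1, Oas2 and Ifit2 were the other 3 called, at -1.39, -1.07 and -1.01. Without NanogN70 replicate 1 the calls of Mx1 and Ifit2 were lost, and that of Ifit2 also without native Nanog replicate 1. Ifit1 and Isg15 were not called, at 13.2 and 40.8 against 59.8 and 53 FPKM and at 43.7 and 41.4 against 79.5 and 120. Antigen-presentation genes, many of which interferon also induces, had 0 of 20 called, beside 3.7% of all genes, and a median of -0.15. Of this list of 42, 30 have a promoter in the RefSeq table, and 18 of these (60.0%) hold the interferon motif. Among all tested genes with a promoter 3.61% hold it. Of the 8 genes called, 4 have a promoter, and 2 of these (Ifit3 and Ifit3b) hold the motif.

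Chemokines, cytokines and adhesion genes had 5 of 27 called lower and 1 higher, beside 2.45% and 1.25% of all genes, with a median of -0.12. Beside Sele, the lower genes were Ptgs2, the inducible cyclooxygenase, at 2.62 and 4.18 against 16.5 and 23.3 FPKM (-2.25, SE 0.20, adjusted p = 4.19e-07), and Cxcl12, a stromal chemokine, at 2.47 and 2.32 against 14 and 8.30 (-1.80, SE 0.28). Vcam1, an adhesion molecule that partners leukocyte integrins, and Ptx3, a secreted pattern-recognition protein, were at -1.17 and -1.08. The Ptx3 call was lost without NanogN70 replicate 2 or either native Nanog library. The gene called higher was Il33. Factors of the AP-1 family and its stress-response partners had 1 of 28 called in each direction, beside the same shares of all genes. Fos was at 23.1 and 17.3 against 9.36 and 6.56 FPKM (1.25, SE 0.30) and Fosl1 at 2.4 and 2.05 against 5.64 and 6.11 (-1.09, SE 0.28). Both are fragile, since Fosl1 lost its call without any 1 library and Fos without NanogN70 replicate 1 or native Nanog replicate 2.

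Of the BAF complex, Ss18 was the subunit whose transcript was called. Of 31 subunit genes tested, 1 was called, beside 3.7% of all genes, and the median was 0.03. A further 4 passed the adjusted p with differences under the fold limit, of which Dpf2 was above 0 (0.47). The others were below 0, namely Bicra, the scaffold of the non-canonical complex, at 4.90 and 4.28 against 8.69 and 10.9 FPKM (-0.94), Arid1b, an alternative subunit of the canonical complex, at 5.42 and 6.05 against 9.63 and 10.6 (-0.72), and Brd9, a bromodomain subunit of the non-canonical complex (-0.63).

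Signalling genes differed in single members. Of 49 genes of the Nodal, BMP, Wnt, FGF and LIF pathways, 1 was called higher and 2 lower, beside 1.25% and 2.45% of all genes. Tcf7, a DNA-binding partner of beta-catenin, was at 10.6 and 6.69 FPKM with NanogN70 and at 3.03 and 1.97 with native Nanog (1.45, SE 0.25). Grem1, a secreted BMP antagonist, was at 27.9 and 86.4 against 156 and 236 FPKM (-1.94, SE 0.38), a call lost without NanogN70 replicate 1. Dkk2, a secreted Wnt inhibitor, was at 0.719 and 0.737 against 2.64 and 4.58 FPKM (-1.38, SE 0.37), a call that held only without native Nanog replicate 1 among the fits that left out a library.

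The insulin-like growth factor genes had 1 of 13 called higher and 3 lower, beside 1.25% and 2.45% of all genes, with a median of -0.38. Igfbp3, which carries IGF in the circulation and is secreted by fibroblasts, was at 17.0 and 13.9 against 108 and 85.4 FPKM (-2.57, SE 0.17, adjusted p = 1.17e-08). Igfbp5 and Igf2r were at -1.12 and -1.04. Igfbp7, a matrix-bound relative, was higher, at 91.2 and 52.5 against 20.4 and 30.7 FPKM (1.43, SE 0.37). The calls of Igfbp5, Igf2r and Igfbp7 were each lost without either of 2 libraries, while that of Igfbp3 stood without each of the 4.

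Genes of other lineages were called in both directions. Of 25 neural genes tested, Tubb3 and Stmn2 were called higher, and Nefm, Nefl and Pou3f1 lower, with a median of -0.10. Of all genes tested, 1.25% were called higher and 2.45% lower. Nefl, the light neurofilament subunit, was at 22.4 and 18 against 71.1 and 70.3 FPKM (-1.77, SE 0.34), and Pou3f1, a POU factor of early neural and glial cells, at 11.9 and 3.37 against 27.9 and 33.4 (-2.07, SE 0.43). The Pou3f1 call was lost without NanogN70 replicate 2. Of 14 primitive endoderm genes, 3 were called lower and 0 higher, with a median of -0.51 beside the 0.04 of all genes. The 3 were Thbd, Nid2, a basement membrane nidogen, and Dab2, an endocytic adaptor, which was at 9.10 and 12.6 against 32.1 and 23.1 FPKM (-1.27, SE 0.22). All 3 are also expressed by MEF. Both NanogN70 libraries were below both native Nanog libraries in 9 of the 14 and above them in 2. Over all genes tested these shares were 20.1% and 25.4%. Trophoblast, germline and Hox genes had 0 of 16, 0 of 11 and 0 of 39 called, beside 3.7% of all genes. Of those listed, 15 of 21, 23 of 25 and 8 of 39 were under 1 FPKM in all 4 libraries. At such levels the scale understates differences, so these counts do not show that the groups were alike.

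Beside the 3.7% of all genes called, the lists of growth and metabolism gave these counts. Of 44 cell cycle and replication genes, 1 was called, Ccnd1, the G1 cyclin D1, at 37.4 and 53 against 89.4 and 122 FPKM (-1.21, SE 0.24), which was lost as a call without NanogN70 replicate 1 or native Nanog replicate 2. Of the same 44 genes, 35 were above 0, with a median of 0.23. Cdkn1a, the p21 inhibitor of the cell cycle, was at 188 and 163 against 254 and 320 FPKM, with a difference of -0.70 that passed the adjusted p (0.00185) and not the fold limit. Of 25 p53 and senescence genes, Igfbp7 was called higher and Igfbp3 lower, both described above. Of 19 oxidative stress genes Gsta4 was higher (1.18) and Sod3 and Nqo1 lower (-1.23 and -1.03). All 3 of these calls were lost without at least 1 library.

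The next question was whether the D3 difference was already there at D1 or changed by D5. These days share no library with D3, but each gene has the same estimate of spread on each day. A gene with a small spread is thus easier to call on every day, so the overlaps below are not independent. At D1 224 genes (1.33%) were called and at D5 1091 (6.48%). Of the 210 genes higher at D3, 29 (13.8%) were called higher at D1, which is 46.8% of the 62 called higher at that day (0.368% of all genes), and 145 (69.0%) were called higher at D5, which is 26.9% of the 539 of that day (3.2% of all genes). For the 413 lower genes the numbers were 100 at D1 (24.2%, and 61.7% of the 162 lower at that day, which were 0.962% of all genes) and 292 at D5 (70.7%, and 52.9% of the 552 lower, which were 3.28% of all genes). The median difference of the 210 higher genes was 0.40 at D1 and 1.41 at D5, and that of the 413 lower genes was -0.62 and -1.33. The D3 medians of 1.30 and -1.36 were fixed in part by the choice of these genes.

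A test of the change itself called 120 genes (0.713%) between D1 and D3, 52 (0.309%) with a difference that moved towards NanogN70 and 68 (0.404%) towards native Nanog. Between D3 and D5 it called 45 (0.267%), 39 towards NanogN70 (0.232%) and 6 towards native Nanog (0.0356%). Tubb3 moved most among the genes named, from a difference of -0.34 at D1 to 3.10 at D3, a change of 3.44 (SE 0.59, adjusted p = 0.00583). Mean levels went from 14.5 FPKM at D1 to 231 at D3 with NanogN70 and from 18 to 25.5 with native Nanog. Stmn2 went from 87.6 to 199 FPKM with NanogN70 and from 53.6 to 25.2 with native Nanog, a change of 2.24 (SE 0.26, adjusted p = 2.45e-04). Tdgf1 went from 0.0711 to 5.82 FPKM with NanogN70, while with native Nanog it was listed at 0 at D1 and stood at 0.0636 at D3, a change of 2.55 (SE 0.48, adjusted p = 0.0105). Thbd parted in both directions, from 13.3 to 5.94 FPKM with NanogN70 and from 22 to 50.7 with native Nanog, a change of -2.22 (SE 0.30, adjusted p = 7.19e-04). Nefm, Vgf and Lum, in contrast, were already at -2.67, -2.11 and -2.38 at D1, and their change by D3 was not called.

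The matrix and interferon lists differed in their counts and medians by day. The matrix list had 7 members called lower at D1, 15 at D3 and 13 at D5, with medians of -0.34, -0.77 and -0.48. The interferon list had 0 called lower at D1, 8 at D3 and 30 at D5, with medians of -0.08, -0.62 and -1.36. Over all genes the medians of these days were 0.02, 0.04 and 0.08. The test of the change itself called 2 of 42 genes in each list from D1 to D3, towards native Nanog. The share of all genes called in that direction was 0.404%. From D3 to D5 it called 0 of 42 in each list, beside 0.267% of all genes. Ifit3 went from 1.83 FPKM at D1 to 13.9 at D3 with native Nanog and from 1.23 to 2.50 with NanogN70, a change of -1.75 (SE 0.38, adjusted p = 0.0343). The difference between the 2 lists in their courses was not tested.

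**Figure D4:**
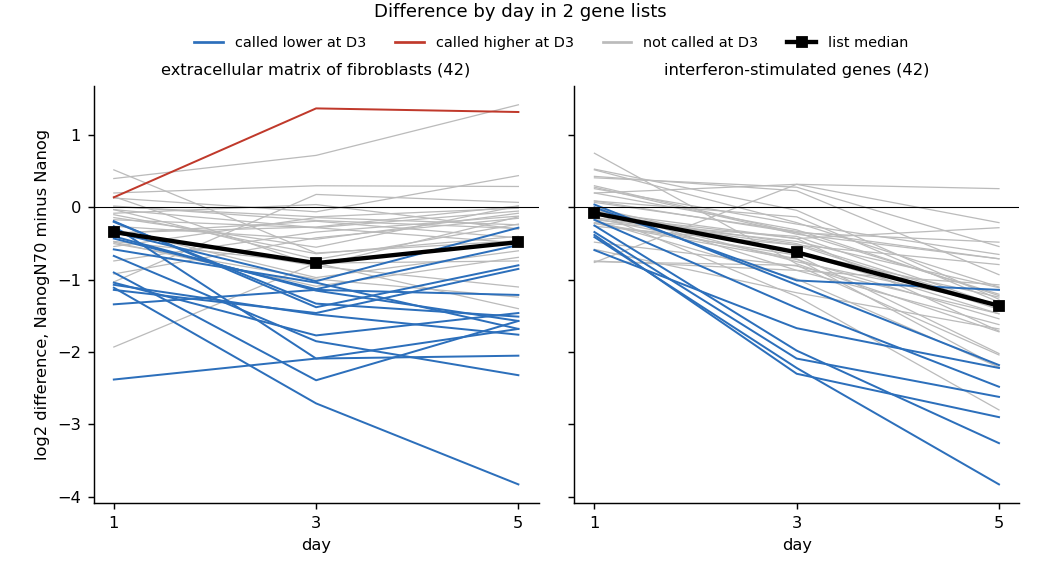
Log2 difference (NanogN70 minus native Nanog, vertical axis) at D1, D3 and D5 of the 42 matrix genes and the 42 interferon-stimulated genes tested, blue for genes called lower, red for called higher and grey for not called at D3. The black line is the list median, which is lowest at D3 for the matrix list (-0.77) and at D5 for the interferon list (-1.36).

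Between D3 and D5 the change of the difference was called for few of the named genes, which does not show that the others kept theirs. Il33 went from 2.34 at D3 to 0.92 at D5 (a change of -1.42, SE 0.31). Tdgf1 went from 2.64 to 4.12 (1.48, SE 0.48), and neither change was called. Clu went from 126 to 807 FPKM with NanogN70 and from 18.9 to 40.1 with native Nanog, a change of 1.66 (SE 0.34, adjusted p = 0.0389). Nkx1-2, Grik3, Stra6 and Mgarp were among the genes with the largest called increases by the rule for named genes, at 2.50, 1.99, 1.95 and 2.18. At D3 the homeobox gene Nkx1-2 was at 0.13 FPKM in NanogN70 replicate 1 and listed at 0 in the other 3 libraries, with a difference of 0.09 that was not called. Mgarp, a mitochondrial protein, was called lower at D3 (-1.03) at 4.50 and 2.4 against 7.80 and 7.87 FPKM, a call lost without each library other than NanogN70 replicate 1, and at D5 its means were 15.4 and 6.32. Among the genes named, Nts, neurotensin, had the largest decrease, from -2.37 at D3 to -4.50 at D5, and its means with native Nanog were 6.67 and 33.4 FPKM.

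**Figure D5:**
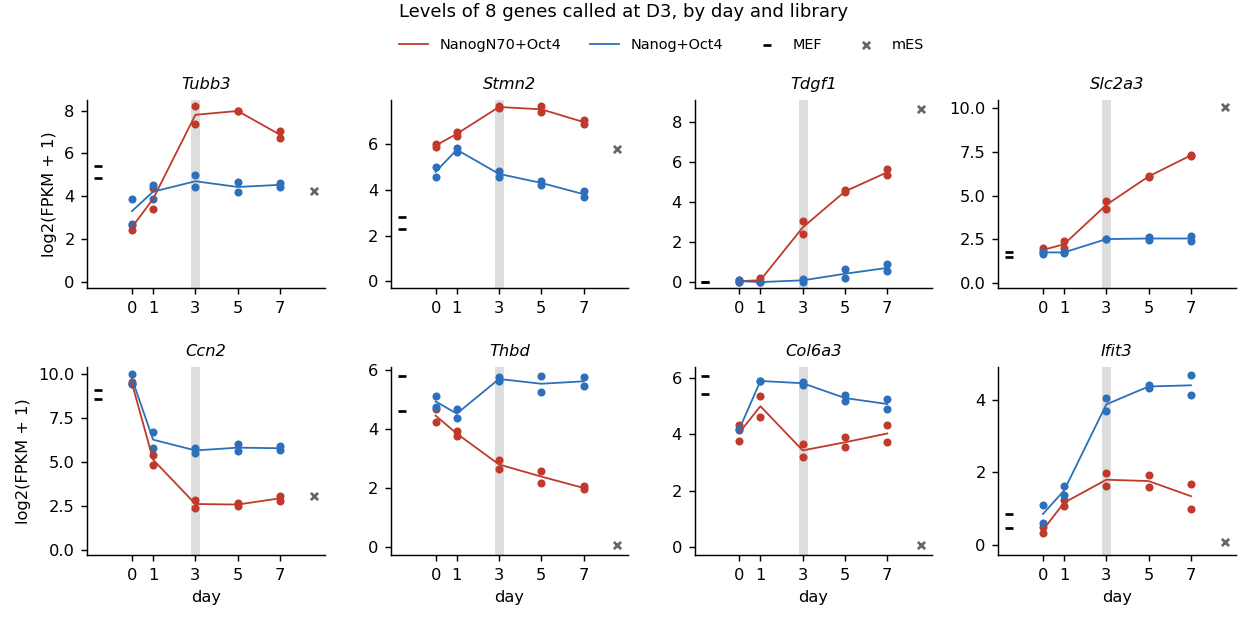
Levels in log2(FPKM + 1) (vertical axis) of 8 genes called at D3, by day from D0 to D7 (horizontal axis), with a point for each library, lines through the means of 2 libraries, dashes for MEF at the left and crosses for mES at the right. The grey band marks D3, where Tubb3, Stmn2, Tdgf1 and Slc2a3 are higher and Ccn2, Thbd, Col6a3 and Ifit3 lower with NanogN70.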

How the data were processed

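RNA-seq values were compared for NanogN70+Oct4 and Nanog+Oct4 at D3. Per the labels, the authors trimmed reads with Trim Galore 0.6.4, aligned them with HISAT2 2.2.1 to mm10 and computed FPKM with StringTie 2.2.1. The deposited FPKM table has 37108 symbols. Its gene annotation and the use of strand are not given in the sources used here. Values were transformed to log2(FPKM + 1), and the 16842 genes with at least 1 FPKM in 2 or more of 31 time-course libraries were fitted in limma 3.58.1 (R 4.3.3) with an intensity trend, 16 groups and 15 residual degrees of freedom. Tests were two-sided, with Benjamini-Hochberg adjustment over all genes tested, and changes between days were contrasts of the same fit. Calls needed an adjusted p below 0.05 and a size of 1 or more in log2. The fit was tested on simulated data. Named genes were the 3 factors, the 12 protein-coding genes at each end of the D3 difference with non-overlapping groups and a mean of at least 5 FPKM in the higher group (predicted Gm and Rik symbols left out), up to 5 called genes per direction of each list, genes the study names, and the 5 called genes at each end of both changes between days. Members and lists were chosen with earlier results of these data known. Alternatives were other pseudocounts, filters, scalings, sources of spread, a replicate block, no fold limit, each library left out, and, added after seeing the data, removal of GC and length trends and of older symbol copies. Genes were matched to GRCm38.p6 in RefSeq (33563 symbols). A few genes that the rule names are not reported here.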

Additional observations from a re-analysis of the deposited data

Results flagged for a closer look

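The results below were picked out because the difference between NanogN70 and native Nanog itself differed between days, by limma's test of that change in the fit to all time-course libraries, with 2 libraries in each group and day. From D1 to D3 the change passed for 120 genes. Of the 25 neural genes tested, 2 were among the 52 whose change was towards NanogN70, which were 0.309% of all genes. Tubb3 had the largest change of the genes named (3.44), and Iapp followed (3.10), as its mean went from 2.35 to 103 FPKM with NanogN70 and from 0.474 to 4.65 with native Nanog. Sh3gl2 changed by 2.27, Stmn2 by 2.24, Shisal2a by 2.09, the neuronal orphan receptor gene Gpr151 by 2.00 and Lgi2, a secreted protein of synapses, by 1.45. Clu changed by 2.4, Tdgf1 by 2.55 and Aldh1a2 by 2.15. Serpinb2, an intracellular inhibitor of plasminogen activators, changed sign, from -1.77 at D1 to 0.52 at D3 (a change of 2.29, SE 0.22, adjusted p = 3.83e-05), as its mean with native Nanog went from 14.8 to 3.18 FPKM and stood at 3.62 and 5.00 with NanogN70. The D3 difference of Serpinb2 was under the fold limit.

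Of the 42 matrix genes tested, 2 were among the 68 whose change was towards native Nanog, which were 0.404% of all genes. Thbd changed by -2.22, Lrrc32 by -1.52, Ccn2 by -1.91, Mpeg1 by -2.27, Thsd7b by -2.13, Casq2 by -2.06 and Pde1a by -1.24. Thsd7b, a thrombospondin-domain protein, went from 1.08 to 12.6 FPKM with native Nanog and from 0.0973 to 0.67 with NanogN70. Dpt changed by -1.59, Col14a1 by -1.83, Ltbp2 by -1.58 and Npnt, the integrin ligand nephronectin, by -1.39. Npnt declined in both groups, from 21.8 to 5.46 FPKM with NanogN70 and from 52.7 to 38.1 with native Nanog. Ifit3b changed by -1.92 and Ifit3 by -1.75. Myo18b, an unconventional myosin of muscle, changed by -2.08 and Nts by -1.98, and both were under 1 FPKM in both groups at D1.

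From D3 to D5 the change passed for 45 genes, a count that ranged from 6 to 106 when single libraries were left out, where that of D1 to D3 ranged from 62 to 206. Clu changed by a further 1.66. Nkx1-2 changed by 2.50, as its mean with NanogN70 went from 0.0651 to 5.04 FPKM while native Nanog was listed at 0 on both days. Grik3, a kainate receptor subunit, changed by 1.99 and Stra6, the receptor for retinol-binding protein, by 1.95. Mgarp changed by 2.18, from below to above native Nanog. Nts changed by -2.14. Groups of 2 libraries are too small to test whether 1 of them stands apart.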

How the results depend on the processing

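The D3 count of 623 rose to 1011 with a pseudocount of 0.1, to 937 (267 higher, 670 lower) with values rescaled to a common total and to 1709 without the fold limit, and fell to 0 with the spread of the 4 libraries alone (2613 at an unadjusted p under 0.05). It ranged from 555 to 810 when each library was left out, the highest without NanogN70 replicate 2, and in these fits the lone sample is assumed to vary like the other groups. The D1 to D3 count of 120 became 62 with the pseudocount of 0.1 and 14 with the groups compared alone, and ranged from 62 (without NanogN70 D1 replicate 1) to 206 (without NanogN70 D3 replicate 2). Single D3 libraries left out gave 64, 206, 72 and 76. The D3 to D5 count of 45 became 5 with the pseudocount of 0.1, 24 with rescaled values, 24 with quantile normalization, 8 with the groups compared alone and 11 with the trend in GC content and length removed, an alternative chosen after seeing the data, and ranged from 6 (without NanogN70 D5 replicate 2) to 106 (without NanogN70 D3 replicate 1). Its other values with 1 library left out were 23, 9, 14, 17, 13 and 7. The causes were not tested. All other alternatives kept the 3 counts within 1.5 times.

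Of 111 named genes called, 76 kept their call without each library in turn and 35 lost it without at least 1. The named genes counted here also include genes outside the rule that were singled out after their values were seen. The uncalled genes Klf4 and Stra6 changed sign. Klf4 was at -0.06 without NanogN70 replicate 1 and at -0.15 without native Nanog replicate 1, with 0.59 at the other end (without native Nanog replicate 2), and Stra6 ranged from -0.23 without NanogN70 replicate 1 to 0.6 without NanogN70 replicate 2. The replicate numbers in the labels were tried as a block, with 637, 153 and 51 genes called, and the block changed none of the 131 named calls at D3. Same-numbered deviations from the group means correlated at 0.135 at D1, -0.0647 at D3 and -0.0429 at D5. These values cannot show whether same-numbered samples share a culture or a preparation, which the labels do not say. Read depth is not given and limits what can be said of genes near 0.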

Other observations

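The genes in this part were singled out after their values were seen. Neuropeptides and their receptors were called in both directions at D3. Besides Iapp, Npy, an appetite-stimulating peptide, was at 94.7 and 51.8 FPKM with NanogN70 and at 20.4 and 17.7 with native Nanog (log2 difference 1.83, SE 0.37). Its receptor gene Npy1r was at 56.0 and 73.2 against 22 and 22.7 FPKM (1.48, SE 0.24). The Npy call was lost without NanogN70 replicate 1 and with a pseudocount of 0.1. Cck, cholecystokinin, was at 484 and 159 against 84.1 and 67.1 FPKM (1.87, SE 0.51), a call that was lost without NanogN70 replicate 1 or either native Nanog library. On the lower side, beside Vgf and Nts, stood Prlhr, the receptor of prolactin-releasing peptide, at 0.265 and 0.28 against 5.30 and 5.70 FPKM (-2.35, SE 0.18), Nppc, the C-type natriuretic peptide, at -2.02, and Ucn3, urocortin 3, at -2.17, whose call was lost without native Nanog replicate 1. Npy, Cck and Npy1r were at 4.13 FPKM or lower in MEF.

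Forebrain homeobox genes were among the higher calls. Dlx1 was at 4.17 and 3.21 FPKM against 0.13 and 0.143 (2.04, SE 0.14), and its antisense partner Dlx1as at 12.3 and 7.49 against 0.475 and 0.373 (2.90, SE 0.19). Their genes overlap and the sources used here do not say whether reads were counted by strand, so the 2 values cannot be told apart with certainty. Vax1 was at 3.25 and 1.73 against 0 and 0.0575 FPKM (1.73, SE 0.18). Ccn3, of the same family as Ccn2, differed in the opposite direction from it, at 538 and 519 against 141 and 112 FPKM (2.06, SE 0.30). Members of the interferon-inducible Ifi200 family that were not on the interferon list were called lower, Ifi211 at -2.26, Ifi205 at -2.11 and Ifi204 at -2.06. These genes are close paralogues whose reads may be shared, so the division among them is uncertain. Mest, an imprinted gene of mesoderm, was at 47.5 and 58.4 against 233 and 196 FPKM (-2.0, SE 0.21), and Cx3cl1, the chemokine fractalkine, at 8.33 and 7.43 against 54.8 and 41.8 (-2.46, SE 0.41).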
